A study of Mus musculus with 32 samples.

Results

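The genes examined here encode the subunits, activators and assembly factors of the proteasome. They were chosen by name: protein-coding genes with a GENCODE M21 symbol made of Psm, a letter from a to g and a number, with 1 gene of that pattern left out, together with Adrm1. The rule gave 49 of 25059 genes with RNA-seq counts. The rule itself uses no measured value, but it was chosen with earlier results of these data known. The 49 members comprised 8 genes of the 20S alpha ring, 10 of the 20S beta ring, 6 ATPases and 15 non-ATPases of the 19S regulator, 4 activators, 4 assembly chaperones named Psmg, 1 inhibitor (Psmf1) and Psmc3ip. The 15 non-ATPases were grouped by name, and Psmd5, Psmd9 and Psmd10 among them encode assembly chaperones of the 19S regulator. Psmc3ip met the naming rule, although its product is a cofactor of meiotic recombination and no proteasome subunit.

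The 20S core is a barrel of stacked alpha and beta rings whose beta subunits cut proteins, and the 19S regulator binds ubiquitin-tagged proteins, removes the tag, unfolds them and feeds them into the barrel. In cells exposed to interferon-gamma, and constitutively in many immune cells, inducible beta subunits such as Psmb9 and Psmb10 replace their constitutive counterparts Psmb6 and Psmb7, and the PA28 activator made of Psme1 and Psme2 rises with them. Proteasome genes are expressed in nearly every cell type, and in stressed cells many of them can be raised together by the transcription factor Nfe2l1. Cisplatin links neighbouring guanines in DNA. Excision repair removes this adduct and does so faster from the transcribed strand (TS) of active genes than from the non-transcribed strand (NTS).

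The samples came from kidney, liver, lung and spleen of wild-type female C57BL/6J mice aged 6–7 months. Cisplatin-treated animals received 10 mg per kg by intraperitoneal injection at ZT1 (hours after lights on), control animals received saline, and organs were taken at ZT5, which is 4 h later, although the treatment label reads 2 h. RNA-seq covered 2 control and 2 cisplatin libraries per organ. Damage-seq, which counts DNA adducts, and XR-seq, which counts the short DNA fragments released by excision repair, covered 2 cisplatin libraries per organ and no control libraries.

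In units of 1e6, the reads on genes came to 15.6–162 per RNA-seq library, 10.7–59.8 per XR-seq library and 1.57–6.44 per Damage-seq library. The control pairs of lung and of spleen RNA-seq differed by little more than read sampling (dispersion indices 2.75 and 2.98, against 39.3–349 in the other 6 pairs), so each pair was summed and counted as 1 sample, and the lone control was assumed to vary like the cisplatin pair. The replicates are described as biological, and p-values measure the spread between these libraries only. Summed RPKM of the marker lists separated the organs as labelled, with kidney tubule markers at 2813–3934 in kidney and at most 9.39 elsewhere, and lung epithelium markers at 108172 or above in lung and at most 42 elsewhere. Within organs, markers of other cells moved with treatment. B cell markers in the lung were at 139 and 140 RPKM in control and at 45.3 and 32.8 in cisplatin libraries, and pancreatic acinar markers in the spleen were at 6.97 and 6.38 in control and at 1098 and 857 in cisplatin libraries. In these bulk organs, fewer cells of a type and less RNA per cell cannot be told apart.

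The first comparison asked whether proteasome genes changed in RNA level with cisplatin. In the kidney, 19S regulator genes gave the highest fold changes, and Adrm1 and Psmd7 rose. edgeR's quasi-likelihood test, run against a log2 change of 0.4 in size with Benjamini-Hochberg adjustment over all genes, called 2 of 48 tested members up (4.17%) and 0 down in the kidney, where 2.4% of all tested genes were called up and 2.65% down. DESeq2 also called 2 (4.08%, against 4% of all genes in either direction). The paper on these data lists Adrm1 among the kidney genes upregulated after cisplatin, and Adrm1 joined the rule by name. Its call is therefore no independent support for the set. At an unadjusted p under 0.05 there were 9 members (18.8%, against 19% of all genes). The median log2 fold change of the members was 0.34, against -0.00 over all genes, and 39 members were positive. The share of RNA reads that fell on members was 0.448% and 0.439% in the kidney control libraries and 0.569% and 0.561% in the cisplatin libraries.

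Adrm1 encodes a ubiquitin receptor of the 19S regulator that also recruits the deubiquitinase Uchl5. Its RNA level was 9.47 and 11.3 RPKM (reads on a gene scaled to its exon length and the library's total) in the kidney control libraries and 25.7 and 24.8 RPKM in the cisplatin libraries. Both cisplatin libraries lay well above both controls. The log2 fold change was 1.33 (SE 0.189, n = 2 against 2, edgeR's quasi-likelihood test, adjusted p = 0.0267). Psmd7, a lid subunit that pairs with the deubiquitinase Psmd14, stood at 38.9 RPKM in both controls and at 85 and 80.7 RPKM in the cisplatin libraries, again without overlap. Its log2 fold change was 1.15 (SE 0.158, edgeR adjusted p = 0.0270). Both calls depended on having both cisplatin libraries. Without cisplatin library 1 the edgeR adjusted p was 0.154 for Adrm1 and 0.216 for Psmd7, without cisplatin library 2 it was 0.0701 and 0.114, and in 1 fit of all organs it was 0.139 and 0.0968.

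Adrm1 is the member that gave the highest fold change in the kidney, and the RefSeq sequence before its start is shown because it holds a core of the antioxidant response element, TGACNNNGC, the motif bound by Nfe2l1 and Nfe2l2. The gene (ENSMUSG00000039041) lies at chr2:180171485-180176286 on the plus strand of GRCm38. The 250 bases before the RefSeq start, chr2:180171338-180171587 on the plus strand of GRCm38.p6, read 5′ to 3′ with the motif in capitals:

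Adrm1: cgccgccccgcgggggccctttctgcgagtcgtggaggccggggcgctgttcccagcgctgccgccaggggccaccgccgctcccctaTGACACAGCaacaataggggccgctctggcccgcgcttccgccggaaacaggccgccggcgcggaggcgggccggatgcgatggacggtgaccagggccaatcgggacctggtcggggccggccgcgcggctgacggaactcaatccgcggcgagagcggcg

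Of the 49 members, 41 were matched in the promoter table, and 6 of them (14.6%) held this motif on either strand in the 250 bases before the start, against 3112 of 27025 genes (11.5%). The other members with a match are shown with up to 10 bases on either side, each on its gene's strand, so that a match on the opposite strand reads GCNNNGTCA. A match is a run of letters and was not tested as a binding site. For Psmd9 the 250 bases before the RefSeq start end at chr5:123228189, which lies inside its GENCODE span of chr5:123169413-123250131. Psmd7 is not in the table.

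Psmb5, chr14:54618024-54618052, minus strand: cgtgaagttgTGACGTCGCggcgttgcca

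Psmb6, chr11:70525338-70525356, plus strand: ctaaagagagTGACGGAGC

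Psmc6, chr14:45329587-45329615, plus strand: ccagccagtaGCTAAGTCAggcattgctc

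Psmd12, chr11:107479278-107479299, plus strand: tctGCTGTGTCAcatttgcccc

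Psmd9, chr5:123228149-123228177, plus strand: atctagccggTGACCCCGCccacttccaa

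Of these 6 members Adrm1 was called up in the kidney. Psmd12, a scaffold subunit of the lid, had a log2 fold change of 0.81 (SE 0.156) that did not pass the test (edgeR adjusted p = 0.0891, and 0.00205 with the replicate number as a block). The kidney log2 fold changes of the other 4 were 0.64 for Psmc6, 0.55 for Psmb6, 0.38 for Psmb5 and -0.15 for Psmd9, none called, and no difference between the 6 was tested.

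Kidney values are given here by subcomplex, called members included, and differences between subcomplexes were not tested. The 6 ATPases, which unfold the substrate, were each positive, with a median log2 fold change of 0.60 and none called. The 15 non-ATPases, with the chaperones Psmd5, Psmd9 and Psmd10 among them, had a median of 0.54, with 12 positive and 2 called. The 8 alpha ring genes were each positive with a median of 0.40. The 9 tested beta ring genes had a median of 0.28, with 8 positive. Activators, the Psmg assembly chaperones and the inhibitor Psmf1 lay near 0, at medians of 0.06, -0.12 and -0.08.

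Other 19S genes came near the threshold without passing it. Psmd11, a lid scaffold subunit, had a log2 fold change of 0.86 (edgeR adjusted p = 0.0928, and 0.00108 with the replicate block), and Psmd4, a ubiquitin receptor, one of 0.83 (edgeR adjusted p = 0.0955, and 0.00132 with the block). The lowest kidney value was that of Psme4, the PA200 activator, at 27.1 and 23.2 RPKM in control and 15.9 and 14.7 RPKM in cisplatin libraries. These did not overlap, but the log2 fold change of -0.66 did not pass the test (SE 0.157, edgeR adjusted p = 0.187, and 0.0278 with the block). With the replicate number as a block 10 of 48 members (20.8%) and 20.6% of all genes were called in the kidney. Psmg2 and Psmg1, partners in the chaperone that assembles the alpha ring, followed at -0.30 and -0.25, neither called.

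**Figure D1:**
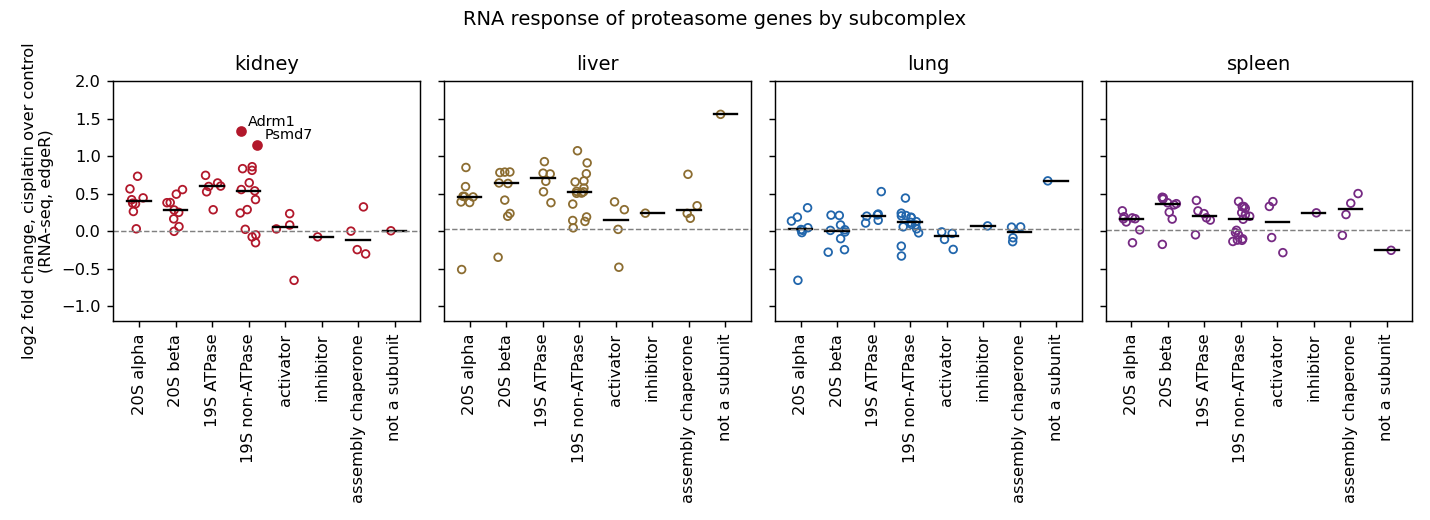
Log2 fold change of RNA (cisplatin over control) for each tested member, in columns by subcomplex and with 1 panel per organ; filled points passed the test, black lines are subcomplex medians and the dashed line is the median of all genes. Adrm1 (1.33) and Psmd7 (1.15) in the kidney are the filled points, and the lung value of Psmb11 (-3.64, at most 0.05 RPKM in every library) lies outside the axis.

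On the TMM-scaled CPM of the test, both kidney cisplatin libraries were above both controls for 30 of 48 members (62.5%, against 27.8% of all tested genes), and below them for 4 (8.33%, against 28.9%). With library size, the scale of RPKM, they were above for 28 (58.3%, against 24.3%). Markers of other cell types also moved there. The hepatocyte list stood at 106 and 146 RPKM in control and 62.9 and 69.3 in cisplatin libraries, and the kidney tubule list at 3458 and 3934 against 2813 and 3193, with 0 of 6 tubule markers called. Their part in the proteasome values was not tested.

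Genes that work with the proteasome were taken from a list of partners, of which 24 were found. In the kidney 3 of 24 rose (12.5%, against 2.4% of all tested genes called up), with a median log2 fold change of 0.37 and 21 positive. Zfand5, which stimulates the 26S proteasome, went from 8.09 and 5.92 RPKM to 22.4 and 20.7 (log2 fold change 1.69, SE 0.185, edgeR adjusted p = 0.0142). Zfand2a, an arsenite-inducible proteasome-associated protein, went from 6.05 and 4.67 RPKM to 15 and 12.4 (1.42, SE 0.196, edgeR adjusted p = 0.0239). Nfe2l2, the transcription factor of the oxidative stress response, went from 41.2 and 42.6 RPKM to 81.5 and 86.4 (1.06, SE 0.167, edgeR adjusted p = 0.0424). In each of these 3 genes the cisplatin libraries lay above the controls without overlap. No partner was called in liver, lung or spleen, where the list medians were 0.27, 0.08 and 0.06. Of 8 interferon-inducible antigen processing genes outside the proteasome, 0 were called in any organ by edgeR, with medians between -0.09 and 0.05.

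In the liver the members had a higher median than in the kidney, and none passed the test. edgeR called 0 of 48, in an organ where 0% of all genes were called. At an unadjusted p under 0.05 in the edgeR test there were 0 members, against 9.28% of all genes. DESeq2 called 0, against 0.964%. The member median was 0.48, against 0.03 over all genes, and 45 members were positive, with subcomplex medians from 0.71 for the ATPases and 0.63 for the beta ring to 0.15 for the activators. This median rested on cisplatin library 2: it was -0.00 without that library and 0.81 without cisplatin library 1, where 5 of 48 members (10.4%) and 12.9% of all genes were called. Adrm1 shows the spread, at 9.33 and 12.8 RPKM in control and 16.3 and 28.1 RPKM in cisplatin libraries (log2 fold change 1.07, SE 0.494, edgeR adjusted p = 0.677). Psmc5, an ATPase, was at 51.8 and 72.7 against 80.4 and 144 RPKM (0.93, edgeR adjusted p = 0.794). In both genes the cisplatin libraries were above the controls in RPKM, and they differed from each other by more than the control libraries did. The highest value was that of Psmc3ip (1.56, edgeR adjusted p = 0.804), a gene at or below 0.544 RPKM in each liver library. At the other end were Psma8 (-0.51), Psme4 (-0.48) and Psmb9 (-0.35), none called. The count of members in which both cisplatin libraries exceeded both controls depended on the scaling, with 9 of 48 on TMM-scaled CPM (18.8%, against 19.2% of all genes) and 34 of 48 with library size (70.8%, against 20.2%). Lung epithelium markers in the liver were at 13 and 6.41 RPKM in control and 27.6 and 42 in cisplatin libraries, and their part in these values was not tested.

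In the lung 0 of 49 members were called by edgeR (background 2.09%). In that test 1 was at an unadjusted p under 0.05 (2.04%, against 13% of all genes). DESeq2 called 0 (against 2.28%). The median was 0.06, against 0.03 over all genes, and 33 were positive. Psmc3ip (0.67), Psmc6 (0.53) and Adrm1 (0.44; 9.11 and 8.84 RPKM in control, 13.8 and 10.5 in cisplatin libraries) were highest, while Psmb11 (-3.64), Psma8 (-0.66) and Psmd14 (-0.33) were lowest. Psmb11, the beta subunit of thymic epithelium, reached at most 0.0488 RPKM in any library, and Psma8, the testis form of an alpha subunit, at most 0.88 RPKM, so their values carry little weight.

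In the spleen 0 of 48 members were called by edgeR (background 0.181%). In that test 0 were at an unadjusted p under 0.05 (against 4.34% of all genes). DESeq2 called 0 (against 0.38%). The median was 0.19, against 0.02 over all genes. Psmg4, an assembly chaperone, was at 28.4 and 27.5 RPKM in the control libraries and 38.5 and 38.6 RPKM in the cisplatin libraries (log2 fold change 0.50), followed by Psmb10 (0.45) and Psmb4 (0.45). Adrm1 differed less here, at 9.7 and 8.98 RPKM against 10.7 and 10 RPKM (0.20, SE 0.165). Lowest were Psme4 (-0.29), Psmc3ip (-0.26) and Psmb7 (-0.18). On TMM-scaled CPM both cisplatin libraries were above both controls for 33 of 48 members (68.8%, against 32.3% of all genes) and in the lung for 23 of 49 (46.9%, against 34.1%). With library size they were above for 33 in spleen (68.8%, against 29.2%) and 22 in lung (44.9%, against 34.7%). On that scale they were below for 12 in spleen (25%, against 34.2%) and 11 in lung (22.4%, against 34.2%). These spleen differences were small: Psmb9 was at 48.6 and 47.4 RPKM in control and 60 and 61.8 in cisplatin libraries, a log2 fold change of 0.38.

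**Figure D2:**
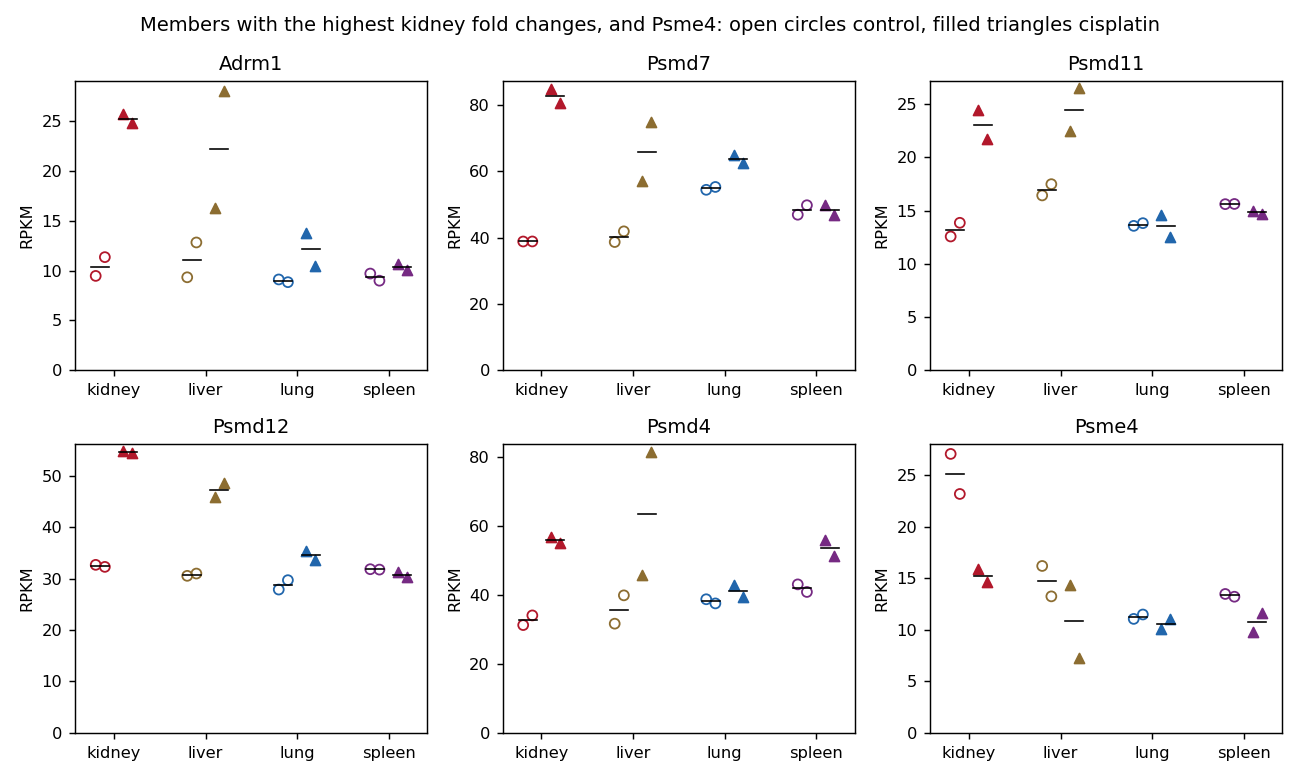
RNA level in RPKM of Adrm1, Psmd7, Psmd11, Psmd12, Psmd4 and Psme4 in each library, by organ; open circles are control libraries, filled triangles cisplatin libraries and short lines group means. In the kidney the 2 groups stand apart for each of the 6 genes, and in the liver the 2 cisplatin libraries lie far from each other for several of them.

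The kidney response was not shown to differ from that of the other organs. A test of the organ by treatment interaction in 1 fit of all organs called 0 of 49 members (edgeR's quasi-likelihood F-test, background 0.209%), with 0 at an unadjusted p under 0.05. DESeq2 called 0 (against 2.96% of all genes). For Adrm1 the log2 fold change in the kidney exceeded that in the spleen by 1.20 (SE 0.578), and for Psmd7 by 1.21 (SE 0.431). The F-test gave edgeR adjusted p = 0.851 and 0.647 for these 2 genes.

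The second comparison asked how proteasome RNA differed between untreated organs. In RPKM the inducible members were lowest in kidney and highest in spleen, and their constitutive counterparts were not. The F-test over the control groups called 27 of 49 members (55.1%, against 69.1% of all genes), and DESeq2 called 33 (67.3%, against 53.4%). Without the filter on low counts edgeR also called 27 members, against 53.3% of 24853 genes, the genes that DESeq2 took in. Whether the members lay above or below the share over all genes thus depended on whether genes with low counts were included in it.

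Psmb9 (ENSMUSG00000096727, chr17:34181987-34187764, minus strand) stood at a control level of 2.19 and 2.45 RPKM in kidney, 7.25 and 5.81 in the liver, 15.5 and 15.1 in the lung and 48.6 and 47.4 in spleen, without overlap between any organs. It was lower in kidney than in spleen by 4.18 on the log2 scale (edgeR adjusted p = 2.54e-06), with values of -2.46 against lung (adjusted p = 0.000109) and -2.36 against liver (adjusted p = 4.07e-05), each SE at most 0.306. Liver and lung did not differ beyond their spread on this scale (-0.10, edgeR adjusted p = 0.818), whereas scaling by library size put liver lower by 1.22 (edgeR adjusted p = 0.00179).

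Psmb10 was at 11.8 and 10.8 RPKM in kidney, 30.1 and 27.3 in the liver, 47.5 and 40.6 in the lung and 70.5 and 66.1 in spleen. The organs again stood in the same order without overlap, and kidney was lower than spleen by 2.41 on the log2 scale (SE 0.391, edgeR adjusted p = 0.000481). Psme1 was at 32.9 and 39 RPKM in kidney and 127 and 124 in spleen, and Psme2 at 25.9 and 26.2 in kidney and 86.2 and 86.5 in spleen. Kidney was lower than spleen by 1.61 for Psme1 (edgeR adjusted p = 0.0109) and by 1.55 for Psme2 (edgeR adjusted p = 0.00624). Without kidney control 1 the organ test of Psme1 lost its call (edgeR adjusted p = 0.111). With TMM scaling, liver and spleen were not told apart for Psmb10 (-0.18, SE 0.402), Psme1 (-0.07, SE 0.455) or Psme2 (0.08, SE 0.397), whereas with library size liver was lower by 1.23, 1.15 and 0.99, each called by edgeR. Among the 8 antigen processing genes outside the list, the summed control level was 468 and 574 RPKM in kidney and 3953 and 4039 in spleen. Leukocytes carry these genes too: Ptprc, expressed on leukocytes, was at 1.27 and 0.761 RPKM in kidney and at 85.9 and 88.6 in spleen controls. Its part in the order of the inducible members was not tested.

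Psmb5, the constitutive beta subunit with chymotrypsin-like activity, ran the other way, at 88.7 and 83.4 RPKM in kidney, 43.7 and 57 in the liver, 48.5 and 50.4 in the lung and 48.1 and 46 in spleen. Both kidney libraries were above the rest, and the kidney exceeded the spleen by 1.05 on the log2 scale (SE 0.37, edgeR adjusted p = 0.0350). Psmb6 lay between 43.4 and 67.8 RPKM and Psmb7 between 17.2 and 25.1 RPKM over the 8 control libraries, with the liver range of Psmb6 overlapping those of kidney and lung. Their organ calls (edgeR adjusted p = 0.0259 and 0.000950) were lost when libraries were scaled by library size (edgeR adjusted p = 0.456 and 0.150).

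For the members as a set, the place of the liver depended on the scaling. With TMM scaling the median difference of kidney from liver was -0.74, with 1 member higher and 18 lower in kidney (20.4% and 16.1% of all genes). With library size it was 0.16, with 10 higher and 4 lower, as the median over all genes moved from 0.01 to 0.89. The liver minus lung median likewise went from 1.00 to -0.14 and liver minus spleen from 0.82 to -0.25. The 3 comparisons without liver had medians of 0.27 (kidney minus lung), 0.06 (kidney minus spleen) and -0.21 (lung minus spleen) with 5, 8 and 1 members called by edgeR, against 36.2%, 50.1% and 28.4% of all genes.

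**Figure D3:**
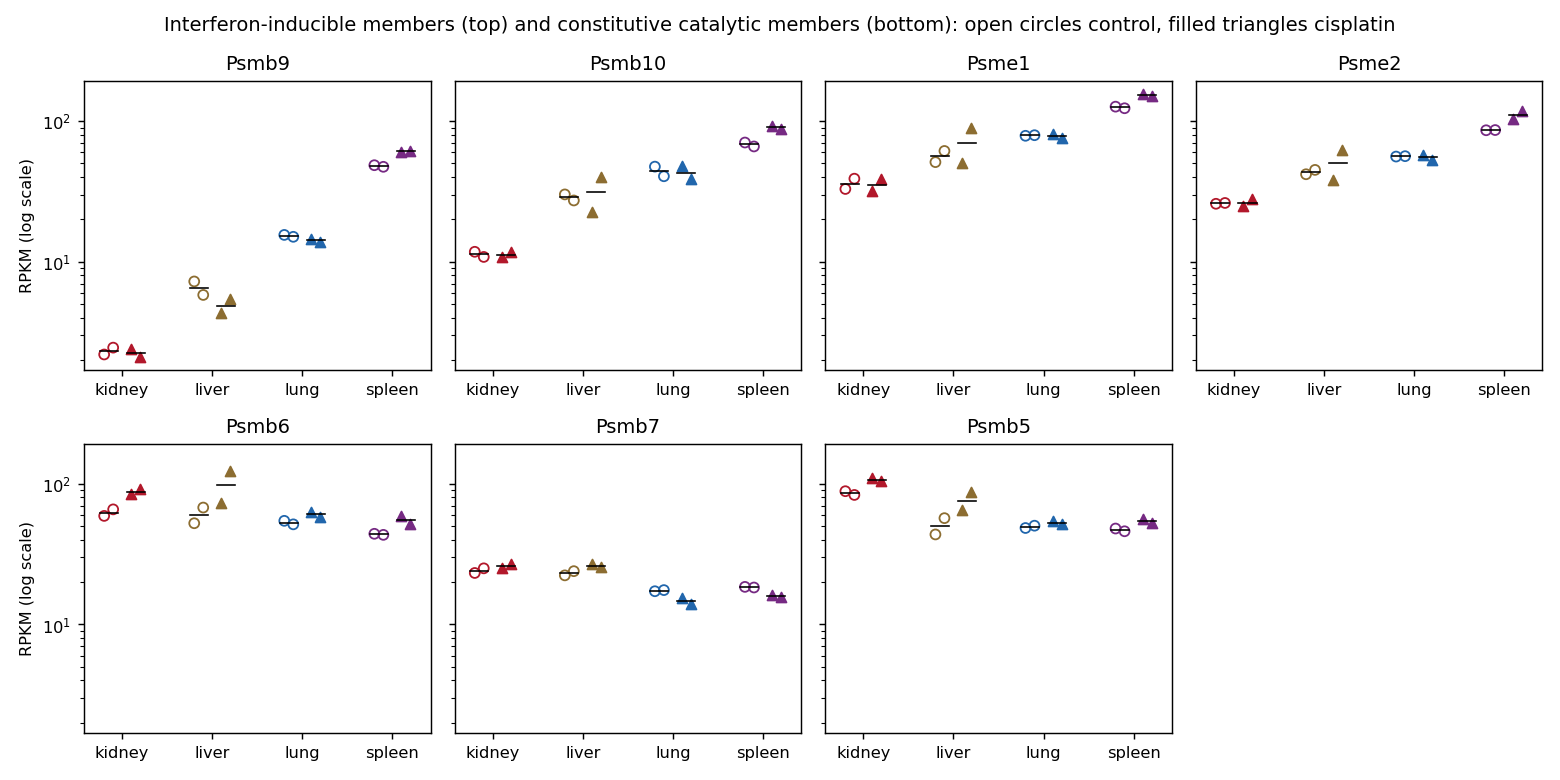
RNA level in RPKM on a log axis in each library, by organ, for the inducible members Psmb9, Psmb10, Psme1 and Psme2 (top) and the constitutive members Psmb6, Psmb7 and Psmb5 (bottom); open circles are control and filled triangles cisplatin libraries. The inducible members climb from kidney to spleen, and the constitutive members do not.

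The third comparison set the strands against each other in XR-seq, where repair coupled to transcription appears as more reads on the TS. Most proteasome genes had far more XR-seq reads on the TS than on the NTS in every organ. Reads were related to the GG dinucleotides of each strand, the sites where cisplatin links neighbouring guanines, and given as CPM per 1000 GG, where CPM scales them to the library's reads on genes. edgeR's quasi-likelihood test called the TS higher in 43 of 49 members in kidney (background 55.3%), 36 in the liver (50.3%), 45 in the lung (58%) and 44 in spleen (56.7%). The median log2 ratio of TS to NTS was 4.11, 2.99, 5.29 and 4.75, against 2.53, 1.92, 2.93 and 2.90 over all genes.

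The highest ratios were those of Psmc4, an ATPase, and Psmg1 in the spleen. Psmc4 had 45.4 and 60.9 CPM per 1000 GG on the TS there, and 0 and 0.383 on the NTS. Psmg1 had 46.8 and 35.5 on the TS, and 0 and 0.282 on the NTS. In both genes the NTS held next to no repair reads, so the fitted ratio has no firm upper end. In the kidney Psmb6 (6.79) and Psmd13 (6.56) led, and in the liver Psmg1 (5.47) and Psmd14 (5.08). Kidney library 1 held 0 NTS reads for Psmb6 and for Psmd13, and library 2 held 8 and 42. These 2 kidney ratios thus lean on a library without NTS reads. Adrm1 had log2 ratios of 3.16, 3.01, 3.33 and 5.34 in kidney, liver, lung and spleen. Psmc3ip, the member that is no subunit, had ratios between -1.0 and 0.40, and its lower TS in the spleen (edgeR adjusted p = 0.0499, background 6.12%) was lost without either spleen library, without the GG scaling and without the filter on low counts. Low ratios were not confined to it. The ATPase Psmc5 had 28 and 39.7 CPM per 1000 GG on the TS in kidney, against 34.1 and 22.2 on the NTS. In the liver it had 21.9 and 16.7 on the TS, against 33 and 35.9 on the NTS. The lowest liver ratio of any member was -0.85, with 0 members called lower on the TS there.

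Several members overlap a gene on the opposite strand. By GENCODE, 18 members do, and where they overlap the NTS of the member is the TS of its neighbour. Among the 31 without such a neighbour the TS was higher in 27, 24, 29 and 29 members (kidney, liver, lung, spleen), with median log2 ratios of 4.24, 3.38, 5.44 and 4.99. Among the 18 with one it was higher in 16, 12, 16 and 15, with medians of 3.28, 2.22, 4.52 and 3.89. Their longest overlaps ran from 14 bp (Psme1) to 61459 bp (Psmd9). Some cover little of the gene, such as 84 bp of the 88683 bp of Psmd14.

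Psmd9, an assembly chaperone of the 19S base at chr5:123169413-123250131 on the plus strand, overlaps 3 genes on the opposite strand. Most of this GENCODE span, over which its GG were counted, lies before the RefSeq start used above for the motif. The overlap is 61459 bp for the predicted gene Gm26745, 10921 bp for Hpd, the tyrosine-degrading enzyme of liver and kidney, and 2888 bp for the predicted gene Gm43409. Its NTS repair was 10.2 and 11.4 CPM per 1000 GG in liver, 1.65 and 1.44 in kidney, 0.304 and 0.597 in the lung and 0.537 and 0.820 in spleen. Liver stood far above the other organs, and the NTS level differed between organs (edgeR F-test, adjusted p = 3.6e-05), with liver higher than lung by 4.01 on the log2 scale. Hpd RNA in the cisplatin libraries was 960 and 1578 RPKM in liver, 73.1 and 105 in kidney and at most 3.58 in the lung and spleen. The TS level of Psmd9 was 13.5–19.7 over the 8 libraries, and its log2 ratio was 0.72 in the liver against 3.40, 5.15 and 4.41 in kidney, lung and spleen.

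Psmb7 (chr2:38588036-38644087, minus strand) overlaps Nek6, a mitotic kinase gene, by 6571 bp. Its NTS level was 14.2 and 13.8 in the liver and 2.76–5.60 in the other organs (edgeR F-test, adjusted p = 0.0011), and its log2 ratio was 0.58 in the liver and 2.91–3.89 elsewhere. Across the 48 members tested, the NTS level differed between organs in 5 (10.4%, against 26.3% of all genes): Psmb7, Psmc3ip, Psmd3, Psmd9 and Psmg3. Psmg3, an assembly chaperone, has no gene on the opposite strand, and its NTS level was 0 and 3.37 in kidney, 24.2 and 41 in the liver, 2.16 and 2.94 in the lung and 0 and 0.792 in spleen. The liver was thus also the highest organ for a member without such a neighbour. The part of the neighbours' transcription in these NTS levels was not tested. The log2 ratio itself differed between organs in 10 of 49 members in XR-seq (20.4%, against 21% of all genes) and in 5 in Damage-seq (10.2%, against 10.3%) by the edgeR F-test.

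**Figure D4:**
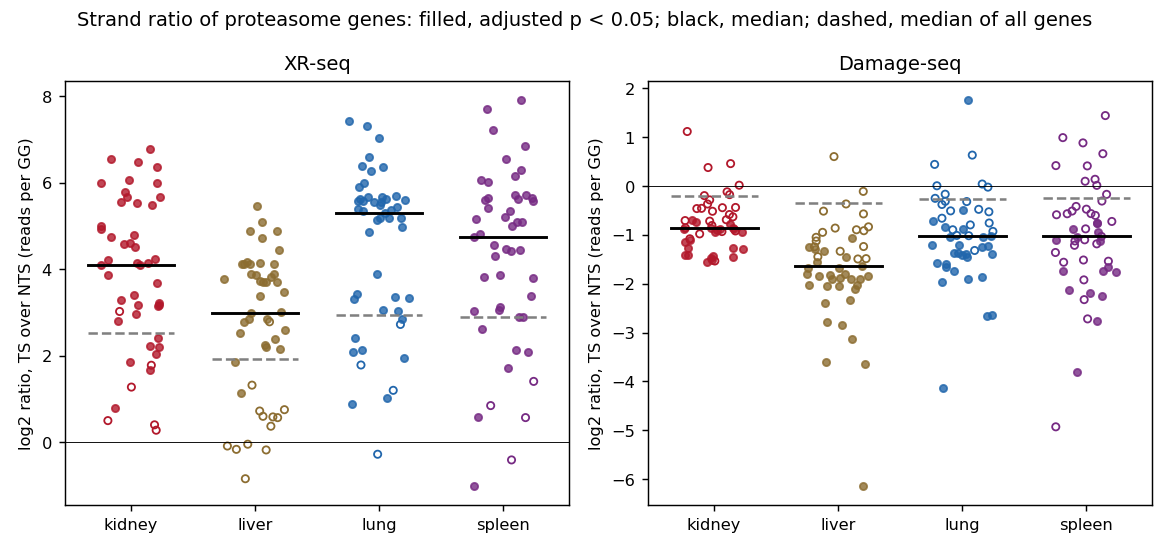
Log2 TS/NTS ratio per GG for each member, by organ, in XR-seq (left) and Damage-seq (right); filled points passed the test, black lines are member medians and dashed lines the medians of all genes. XR-seq medians lie between 2.99 and 5.29 and Damage-seq medians between -1.64 and -0.86; the lowest Damage-seq point is Adrm1 in the liver, which has 0 TS reads.

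In Damage-seq the strand difference ran the other way. The TS carried fewer adduct reads than the NTS in 23 members in kidney (background 20.9%), 31 in the liver (32.7%), 27 in the lung (27.1%) and 16 in spleen (13.1%). The median log2 ratios were -0.86, -1.64, -1.02 and -1.03, against -0.21, -0.35, -0.26 and -0.23 over all genes. Psmc3ip was the one member called higher on the TS, in the lung (background 1.51%, log2 ratio 1.77, edgeR adjusted p = 0.0253, and 0.448 without lung library 1). These tests leaned on single libraries: without kidney library 1 the kidney count was 1, while the genes called fell from 4431 to 150. Without liver library 1 the liver count was 17 and the genes called went from 7009 to 4020. In the spleen 4 members were called without library 1 and 1 without library 2, and the genes called went from 2853 to 1254 and 692. The TS held 25.9–39.0% of the members' Damage-seq reads, against 43.9–47.1% over all genes, and 75.9–92.7% of their XR-seq reads, against 83.8–90.0%.

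Adrm1 shows how thin the adduct counts are. On its TS the 2 libraries held 5 and 14 reads in kidney, 0 and 0 in the liver, 3 and 6 in the lung and 1 and 3 in spleen. On the NTS they held 36 and 26, 8 and 6, 12 and 22, and 8 and 5. The TS had fewer reads in every library, and the depth does not allow a fold for the liver.

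The fourth comparison set the repair level on the TS between organs. The mean level was lowest in the liver for 39 of 49 members, and Psmb9 was among the exceptions. How often the liver mean was lowest over all genes was not counted. edgeR's quasi-likelihood F-test called 33 of 49 members (67.3%, against 58.3% of all genes), and DESeq2 called 34 (69.4%, against 54.1%). The member median was 36.1 and 46.7 CPM per 1000 GG in the kidney libraries, 24.8 and 20.9 in the liver, 42.3 and 47.6 in the lung and 36.3 and 41.2 in spleen, while protein-coding genes had medians of 14.6–16.4. Liver stood apart at both ends: both its libraries were below the other 6 for 34 members (69.4%, against 28.3% of all genes) and above them for 2 (4.08%, against 15.8%). Over all genes too liver was the organ most often below the rest, as kidney, lung and spleen were so for 7.89%, 8.23% and 8.78%.

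Pairwise, 20 members were higher in kidney than in liver and 3 lower (backgrounds 18.9% and 23.6%). In liver against lung 6 were higher and 26 lower (24.8% and 21.6%), and in liver against spleen 3 were higher and 16 lower (22.1% and 19.7%). The median differences were 0.54, -0.72 and -0.49 on the log2 scale, against -0.06, 0.12 and 0.04 over all genes. Scaling by library size moved the all-gene medians to 0.32, -0.17 and -0.21 and the member medians to 0.93, -1.01 and -0.75, with 34 higher and 1 lower, 0 and 30, and 1 and 30 members called. Among the pairs without liver few members differed: 5 between kidney and lung (27.2% of all genes), 4 between kidney and spleen (30.8%) and 1 between lung and spleen (21.8%). The whole F-test count fell to 16 without liver library 2 and to 20 without either lung library.

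Adrm1 had a TS repair level of 89.7 and 87.8 in kidney, 29.2 and 24.9 in the liver, 67.8 and 63.6 in the lung and 59.3 and 61.7 in spleen. Liver lay well below the rest and kidney above them. Kidney exceeded liver by 1.34 on the log2 scale (SE 0.196, edgeR adjusted p = 0.000149), and liver was below lung by 0.99 and below spleen by 0.90, both called. Psmd7 (ENSMUSG00000039067, chr8:107580381-107588464, minus strand) was at 58.4 and 72 in kidney, 26 and 21.6 in the liver, 50.1 and 57.7 in the lung and 56 and 62.4 in spleen, with liver again alone at the bottom (kidney minus liver 1.08, SE 0.213, edgeR adjusted p = 0.00140). The lowest liver minus lung differences were those of the 19S genes Psmd3 (-1.21), Psmc2 (-1.14) and Psmd4 (-1.13) and of the beta ring genes Psmb3 (-1.16) and Psmb1 (-1.07). Psmb6 differed between organs (edgeR adjusted p = 0.0264), but its kidney libraries read 129 and 46.7, and the call was lost without kidney library 1 (0.0740) and without either liver library (0.0933 and 0.0624).

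Psmb9 had 9.08 and 11 CPM per 1000 GG on the TS in kidney, 61.8 and 74 in the liver, 47.3 and 47.6 in the lung and 40.2 and 48 in spleen. Kidney was the low organ and liver the high one, the reverse of Adrm1. Kidney was lower than liver by 3.13 on the log2 scale (SE 0.25, edgeR adjusted p = 1.1e-06), with -2.32 against lung and -2.25 against spleen, both called. Liver exceeded lung by 0.81 (edgeR adjusted p = 0.0104) and spleen by 0.87 (edgeR adjusted p = 0.00828), and neither passed under library size scaling (0.0882 and 0.0507). The organ with the highest Psmb9 RNA, the spleen, was not the one with the highest Psmb9 repair. Tap1, the peptide transporter gene that overlaps Psmb9 by 212 bp on the other strand, had a TS repair level of 27 and 25 in kidney and 45.5–60.1 elsewhere, also lowest in kidney.

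For the other inducible members the F-test of the TS repair level gave edgeR adjusted p = 0.976 for Psme1, 0.963 for Psme2 and 0.10 for Psmb10. Psmb10 was called without the filter on low counts (edgeR adjusted p = 0.0199) and without spleen library 1 (0.0408) or 2 (0.00717), and whether these genes differ from Psmb9 was not tested. Psme1 lay at 41.1–63 and Psme2 at 44–58.1 over the 8 libraries. Psmb10 was at 41.2 and 38.8 in kidney, 54.1 and 72.5 in the liver, 79.8 and 72.1 in the lung and 22.6 and 64.2 in spleen, where the replicates lay far apart. Psmb5 (15.8–57.3) did not pass either (edgeR adjusted p = 0.289), and Psmb7 did (edgeR adjusted p = 0.000164), with 21.3 and 20.6 in the liver below 35.8–48.7 elsewhere.

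**Figure D5:**
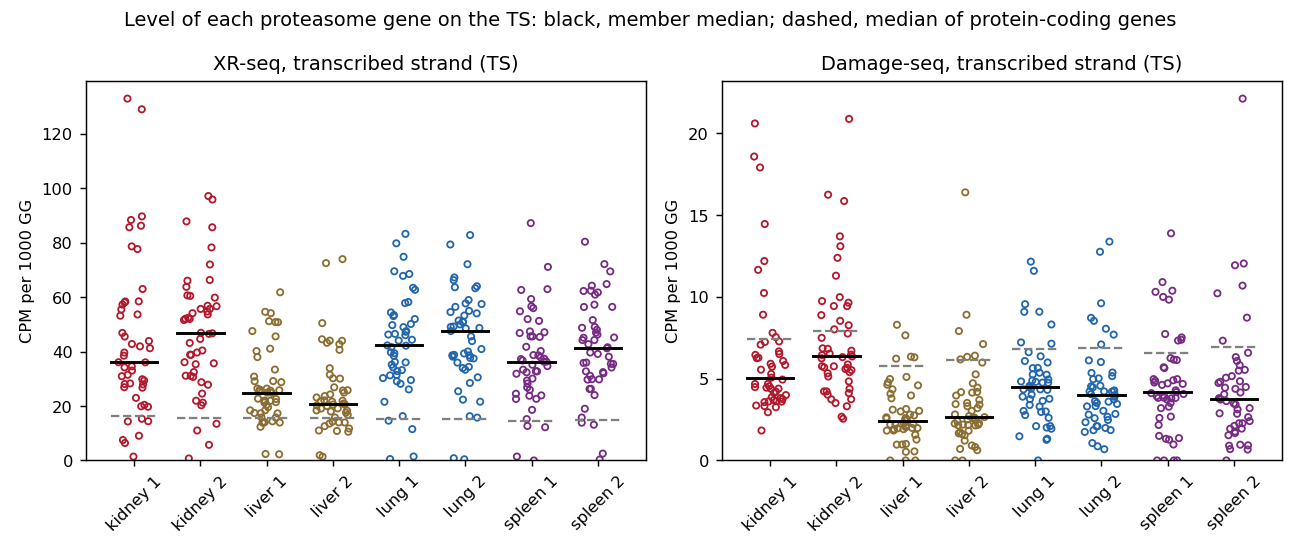
TS level in CPM per 1000 GG of each member in each cisplatin library, for XR-seq (left) and Damage-seq (right); black lines are member medians and dashed lines the medians of protein-coding genes. In XR-seq the member median lies above the protein-coding median in every library and is lowest in liver (20.9 and 24.8), and in Damage-seq it lies below, at 2.44–6.36.

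The last comparison concerned adducts on the TS. edgeR's quasi-likelihood F-test called 11 of 42 members (26.2%, against 31.9% of all genes). DESeq2 called 0 of 49 (against 12.7% of all genes), and leaving out 1 kidney library lowered the edgeR count. Member medians were 5.06 and 6.36 CPM per 1000 GG in kidney, 2.44 and 2.65 in the liver, 4.48 and 4.00 in the lung and 4.18 and 3.78 in spleen, against 5.79–7.90 for protein-coding genes. On the NTS the members were close to other genes, at 8.00–10.4 against 8.38–9.84.

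Kidney exceeded liver in 9 members and was lower in 0 (edgeR backgrounds 16.8% and 14.3%), with a median difference of 0.88. The best counted was Psmd1, a large base subunit, with 99 and 114 TS reads in kidney, 34 and 13 in the liver, 80 and 88 in the lung and 27 and 34 in spleen. As levels these were 4.45 and 5.76, 2.44 and 1.54, 4.35 and 4.21, and 4.97 and 4.45, so that liver alone was low (kidney minus liver 1.03, SE 0.291, edgeR adjusted p = 0.00370). Its NTS was at 7.73–10.5 in every library. Psme1 and Psme2 had 39 and 24 and 23 and 23 TS reads in kidney but 3 and 1 and 0 and 1 in the liver, which is too few to give a fold. On the NTS 6 of 49 members were called (12.2%, against 18% of all genes), with 0 by DESeq2: Psmb3, Psmc6, Psmc3, Psme1, Psme2 and Psmd3.

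Across the 49 members, RNA and the XR-seq TS level gave Spearman's rho of 0.34 in kidney, 0.39 in the lung, 0.39 in spleen and -0.03 in the liver. RNA and the Damage-seq TS level gave rho between -0.38 and 0.04, and both TS levels gave rho between -0.36 and -0.08. The points share libraries and base composition, and these values are descriptions only.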

How the data were processed

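RNA-seq, XR-seq and Damage-seq of 4 organs were taken as the authors' raw counts of reads per gene. In the adduct and repair assays, reads were trimmed with cutadapt and aligned to mm10 with BWA, Picard removed duplicates, and reads without GG at the adduct position were discarded before the authors deposited counts for the TS and NTS of each gene. For poly-A RNA-seq they aligned with STAR, filtered by mapping quality and deposited counts from featureCounts. Groups came from the present sample labels, and 0 columns were left unused. A line naming no gene (1 per strand file, without a value) was dropped.

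Counts were tested with edgeR 4.0.16 in R 4.3.3 (TMM, filterByExpr, Benjamini-Hochberg over all genes, adjusted p threshold 0.05), and RNA responses against a log2 fold change of 0.4. RNA-seq control pairs with a dispersion index of 3 or below were summed. The strand test had the library as a block and an offset of reads on genes times GG count. Genes needed at least 10 GG on the strand with more of them, and GG present on the other. Where a strand has no reads, the fitted ratio depends on the prior count. RPKM used GENCODE M21 exon lengths. Scripts were tested on simulated data. Alternatives were DESeq2 1.42.0, library size scaling, no filter, no GG offset, other sample sets, blocks and leaving out each library; the fit of all organs for lung and spleen cisplatin libraries left out, the counts without overlapping genes or without Psmc3ip, and the library size scale of the RNA libraries that did not overlap, were chosen after seeing the data.

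Named in the text were the members called, up to 10 in each direction; where fewer than 6 were called, also the 3 highest and 3 lowest; Psmb9, Psmb10, Psme1, Psme2, Psmb5, Psmb6 and Psmb7 between organs; Adrm1 throughout; Psma8 and Psmb11 by level; and called partners. Other members were chosen after their values were seen, as those best counted, near the threshold or overlapping a neighbour. The members and lists were chosen with earlier results of these data known. The gene of the naming pattern that was left out is not reported here. Psmb5, Psmb6 and Psmb7 have 4 pseudogenes by name, which may share reads with them. The steps before counting were not repeated.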

Additional observations from a re-analysis of the deposited data

Results flagged for a closer look

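Members whose log2 ratio of TS to NTS differed between organs by edgeR's quasi-likelihood F-test are given here, 10 in XR-seq and 5 in Damage-seq. The values below are in the order kidney, liver, lung and spleen.

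In XR-seq the assembly chaperone Psmd9 (3.40, 0.72, 5.15 and 4.41; adjusted p = 0.00224) and the beta subunit Psmb7 (3.16, 0.58, 3.89 and 2.91; adjusted p = 0.00315) had their low value in liver, as described above for their NTS. The alpha subunit Psma7 (2.21, -0.18, 2.10 and 2.13; adjusted p = 0.0276) and the beta subunit Psmb3 (2.42, 0.75, 3.31 and 2.61; adjusted p = 0.0406) were also low in liver alone. The 19S subunits Psmd3 (2.97, 2.19, 5.48 and 5.63; adjusted p = 0.00602), Psmd7 (3.87, 2.84, 5.99 and 6.06; adjusted p = 0.0268) and Psmd11 (3.28, 2.99, 5.59 and 4.75; adjusted p = 0.0373) were higher in lung and spleen than in kidney and liver.

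The same order held in XR-seq for Psmd14, the deubiquitinase (4.93, 5.08, 6.60 and 6.86; adjusted p = 0.0126), for Psmd1 (4.14, 4.15, 5.69 and 5.71; adjusted p = 0.0346) and for the activator Psme4 (4.20, 4.12, 5.56 and 4.82; adjusted p = 0.0449).

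In Damage-seq the liver was lowest for each of the 5 members: Psmd14 (-0.46, -1.67, -0.48 and -1.03; adjusted p = 0.00282), Psmd1 (-0.93, -2.11, -1.20 and -0.76; adjusted p = 0.0169), Psmd11 (-0.69, -2.04, -1.39 and -0.72; adjusted p = 0.0377), Psme2 (-0.44, -3.60, 0.64 and 0.42; adjusted p = 0.0448) and Psmc5 (-1.11, -3.65, -2.66 and -0.17; adjusted p = 0.0456). Psme2 and Psmc5 had at most 1 TS read in each liver library, so their liver ratios rest on counts near 0.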

How the results depend on the processing

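Over 156 values of named members and 1364 alternatives to them, 1270 kept their side of the threshold, 72 lost the call and 22 gained one. Among the values with a sign, 0 reversed direction. The F-tests between organs have no direction, so their values could not count as reversed. The count of members called in the kidney RNA response, 2, was 8 (16.7%, with 11.1% of all genes) when tested against a log2 fold change of 0 and 0 in 1 fit of all organs, and 0–4 when 1 library was left out. Leaving out 1 library gave 0–5 in the liver (5 of 48 without cisplatin 1, with 1840 of 14302 genes) and 0 in lung and spleen. On library size in place of TMM-scaled CPM, a comparison added after seeing the data, the members whose cisplatin libraries both exceeded both controls went from 9 to 34 in liver. The 27 members that differed between control organs became 41 with each library as a replicate and 16 under library size, and ranged over 13–40 (13 without liver control 2).

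Leaving out 1 library moved the XR-seq organ counts from 33 to 16–40 on the TS and from 5 to 2–17 on the NTS (9 with library size), and the XR-seq liver strand count from 36 to 19–21. The Damage-seq organ counts moved from 11 to 5–11 on the TS and from 6 to 1–7 on the NTS, and were 0 and 0 by DESeq2's likelihood ratio test. The Damage-seq strand counts moved from 23 to 1–21 in kidney, from 31 to 17–29 in liver and from 16 to 1–4 in spleen, while the genes called ranged over 150–3494, 4020–5354 and 692–1254. For the XR-seq and Damage-seq organ counts and the XR-seq liver strand count too, the number of all genes called moved when a library was left out. These shifts are therefore not particular to the members. The cause was not tested, except that fewer libraries leave less to estimate the spread. Damage-seq depth, with a median of 5–25 TS reads per member, limits single genes.

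Same-numbered RNA-seq libraries of an organ gave correlations of deviations of 0.0530 (lung) to 0.570 (kidney), but the labels do not say that the numbers mark a shared animal or batch, so they were not taken as pairs. With the replicate number as a block, 10 of 48 kidney members (20.8%) and 20.6% of all genes were called in RNA. The response then differed between organs for 1 of 48 members (2.08%, against 9.66% of all genes). The block moved no other count of members by more than 1.5 times.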
